A study of Mus musculus with 2 samples.

Results

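The transcripts described here are the 2635 annotated retained-intron transcripts of 835 well-expressed genes in mouse spleen neutrophils. They were chosen by annotation and by gene level. A transcript was taken when its GENCODE biotype was retained_intron and its gene also had at least 1 protein-coding transcript. The gene also had to have a deposited gene-level TPM (a transcript abundance scaled by length and library size) of at least 50 in both libraries. They make up 12.1% of the 21848 retained_intron transcripts in the tables. Their genes are 67.8% of the 1231 protein-coding genes that pass the same TPM minimum. The level that chose these genes is a description here and is not a result.

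The libraries are total RNA-seq of primary neutrophils from mouse spleen, from adult males aged 65 days. They were B6CASTF1/J animals, F1 offspring of C57BL/6 (mother) and CAST/EiJ (father), with no treatment named. They form 1 group of 2 libraries, each made from 300 ng of RNA plus ERCC spike-ins. The labels give both the same donor identifier. The spread between them may therefore be technical, and how the cells were isolated is not given in the sources used here. Each library was quantified in tables of 2 layouts, called RSEM and kallisto below.

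An intron is retained when it stays in an RNA whose other introns have been removed. Such RNA is often kept in the nucleus, and once in the cytoplasm an in-frame stop codon in the intron can lead to nonsense-mediated decay. Intron retention is known to rise during granulocyte maturation, where transcripts of nuclear lamina genes are among the described examples. Genes of splicing factors and of the Clk kinases, which phosphorylate SR splicing proteins, are known to hold retained introns in many tissues. In the GENCODE annotation, retained_intron is a class of transcript models, many of them partial. A model can hold a whole intron or only a part of one.

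Total expected counts were 18387963 and 18090108 in replicates 1 and 2, and total kallisto estimated counts were 20152642 and 19193979. The member genes held a median of 471 and 435 retained-intron counts per gene by RSEM, and 524 and 453 by kallisto. All 10 neutrophil markers examined had at least 10 TPM in both libraries, and their summed level was 37764 and 75257 TPM. The summed level of 4 erythroid markers was 45.2 and 114 TPM, that of 5 monocyte and macrophage markers 39.7 and 64.6 TPM, and that of 4 B cell markers 3.08 and 13.7 TPM. The 4 T cell markers summed to 0.58 and 1.88 TPM, the 4 platelet markers to 17.0 and 13.8 TPM and the 3 NK cell markers to 0.05 and 0 TPM, with Ncr1 and Gzma at 0 in both libraries. Spike-in RNA took 0.423% and 0.260% of the counts.

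The retained introns that carried the largest share of a gene's RNA are shown first. Each is a whole intron between coding exons that lies inside at least 1 retained_intron transcript. The set is the 8 genes whose best such intron of at most 300 nt had the highest lowest-of-4 share, with the matching intron of Lilrb4a added for comparison with its neighbour Lilr4b. Mouse coordinates are mm10 with GENCODE M21 models, and the letters come from the GENCODE M21 transcript sequences, on the strand of the gene. The dinucleotides at both ends (the splice sites) and the first stop codon in the reading frame of the upstream coding exons are in capitals. Other introns held by the same transcript are not part of that reading frame.
Prelid1 intron 3: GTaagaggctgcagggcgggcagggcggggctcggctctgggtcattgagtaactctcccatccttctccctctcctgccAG
Rps20 intron 1: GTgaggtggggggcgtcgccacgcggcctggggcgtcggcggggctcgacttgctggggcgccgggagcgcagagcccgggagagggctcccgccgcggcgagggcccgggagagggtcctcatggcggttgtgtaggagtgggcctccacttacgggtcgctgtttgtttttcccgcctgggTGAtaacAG
Il17ra intron 10: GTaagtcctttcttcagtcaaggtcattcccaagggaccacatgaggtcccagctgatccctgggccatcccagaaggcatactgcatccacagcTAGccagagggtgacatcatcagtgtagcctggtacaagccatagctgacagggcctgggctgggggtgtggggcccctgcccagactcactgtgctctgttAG
Ncl intron 10: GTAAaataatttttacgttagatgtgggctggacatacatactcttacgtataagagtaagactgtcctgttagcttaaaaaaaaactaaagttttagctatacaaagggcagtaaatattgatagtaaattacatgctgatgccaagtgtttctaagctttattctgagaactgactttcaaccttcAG
Lilr4b intron 3: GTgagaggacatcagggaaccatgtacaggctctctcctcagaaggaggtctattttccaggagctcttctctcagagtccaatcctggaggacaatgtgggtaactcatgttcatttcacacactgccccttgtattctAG
Pirb intron 6: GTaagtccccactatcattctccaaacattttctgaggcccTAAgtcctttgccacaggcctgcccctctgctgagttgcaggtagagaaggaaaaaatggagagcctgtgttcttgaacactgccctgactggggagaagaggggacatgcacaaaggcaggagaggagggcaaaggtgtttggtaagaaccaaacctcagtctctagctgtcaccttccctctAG
Adam8 intron 12: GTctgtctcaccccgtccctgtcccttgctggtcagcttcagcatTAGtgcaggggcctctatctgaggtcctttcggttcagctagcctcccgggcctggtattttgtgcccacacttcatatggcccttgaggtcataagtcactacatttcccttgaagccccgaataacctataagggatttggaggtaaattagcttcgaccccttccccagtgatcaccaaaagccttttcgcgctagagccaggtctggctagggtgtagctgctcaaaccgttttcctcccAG
Chkb intron 3: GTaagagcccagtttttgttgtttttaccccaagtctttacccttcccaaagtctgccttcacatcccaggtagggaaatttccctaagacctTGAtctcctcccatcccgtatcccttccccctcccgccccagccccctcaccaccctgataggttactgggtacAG
Lilrb4a intron 3: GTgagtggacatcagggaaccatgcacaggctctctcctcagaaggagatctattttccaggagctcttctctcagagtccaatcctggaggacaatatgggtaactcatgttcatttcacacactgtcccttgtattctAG

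Prelid1 intron 3 (chr13:55324445-55324526, plus strand) is 82 nt long and has the highest lowest-of-4 share of all these introns. Prelid1 encodes a lipid-transfer protein of the mitochondrial intermembrane space. The only retained_intron transcript of the gene, Prelid1-202, has no bases outside the coding exons other than this intron, and it took 91.7% and 92.2% of the gene's TPM by RSEM and 88.1% and 87.5% by kallisto. No stop codon in frame lies within the intron, and its length is not a multiple of 3. Rps20 intron 1 (chr4:3835292-3835483, minus strand) is 192 nt long and 71.9% G and C, and its first in-frame stop begins at base 184. Transcripts with this intron took 90.5% and 80.5% of the TPM of Rps20, which encodes a protein of the small ribosomal subunit, by RSEM. By kallisto they took 91.2% and 67.4%, so replicate 2 was the lower library by both.

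Il17ra intron 10 (chr6:120478176-120478374, plus strand) lies in the gene of a subunit of the interleukin-17 receptor. It is held whole by Il17ra-203 together with the preceding intron of 683 nt, and the first stop is given for intron 10 read straight from its upstream exon. Both introns had a share of 59.5% and 53.4% by RSEM and 50.9% and 52.3% by kallisto. Ncl intron 10 (chr1:86352320-86352509, minus strand) belongs to nucleolin, a nucleolar RNA-binding protein. Its share was 47.1% and 43.9% by RSEM and 56.5% and 57.3% by kallisto. Ncl-202, the only retained_intron transcript that holds this intron, also holds intron 9 of 492 nt whole, so both introns have the same share. Read straight from its upstream exon, the stop codon of intron 10 begins at base 2 and overlaps the splice site.

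Adam8 intron 12 (chr7:139987269-139987559, minus strand) is 291 nt long, and its in-frame stop begins at base 46. Adam8 encodes a membrane metalloprotease stored in neutrophil granules. The intron lies in 2 retained_intron transcripts that together took 40.5% and 44.2% by RSEM and 40.3% and 44.8% by kallisto, so the 4 values lie close together. Chkb intron 3 (chr15:89428545-89428713, minus strand), in a gene for choline kinase, had 36.2% and 42.5% by RSEM and 41.01% and 44.2% by kallisto.

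The remaining 3 introns lie in immunoglobulin-like receptor genes of myeloid cells. Pirb intron 6 (chr7:3716891-3717117, minus strand) was in 3 retained_intron transcripts, with a share of 42.3% and 47.0% by RSEM and 51.8% and 50.6% by kallisto. Intron 3 of Lilr4b (chr10:51481425-51481566, plus strand) and of Lilrb4a (chr10:51491719-51491860, plus strand) have the same length of 142 nt. They differ at 5 positions, an identity of 96.5%, and neither holds an in-frame stop. The leading transcript with the Lilr4b intron, Lilr4b-206, also holds the preceding intron of 198 nt whole, and that intron has an in-frame stop. The Lilr4b intron stood at 44.4% and 47.3% by RSEM and 43.3% and 45.5% by kallisto, and the Lilrb4a intron at 27.2% and 29.1% by RSEM and 32.0% and 32.6% by kallisto. Reads can be split between such near-identical copies, so these values are uncertain. In Lilrb4a, 38.5% of the 31-mers outside coding exons also occur in transcripts of other genes, in Lilr4b 38.6% and in Pirb 31.6%.

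Over all 835 genes, retained-intron transcripts held a substantial but varied share of a gene's TPM. The median share was 21.9% and 20.5% in replicates 1 and 2 by RSEM, or 21.2% ± 1.05 (SD, n = 2). It was 21.4% and 19.5% by kallisto, or 20.5% ± 1.34. The middle 50% of genes ranged from 8.71% to 37.1% by RSEM and from 7.73% to 35.3% by kallisto. As shares of the gene's counts, which are not divided by length, the medians were 12.1% and 11.02%. The member transcripts are short, with a median of 784 nt against 1624 nt for the 3543 protein-coding transcripts of the same genes, and TPM gives a short transcript more weight per count.

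**Figure D1:**
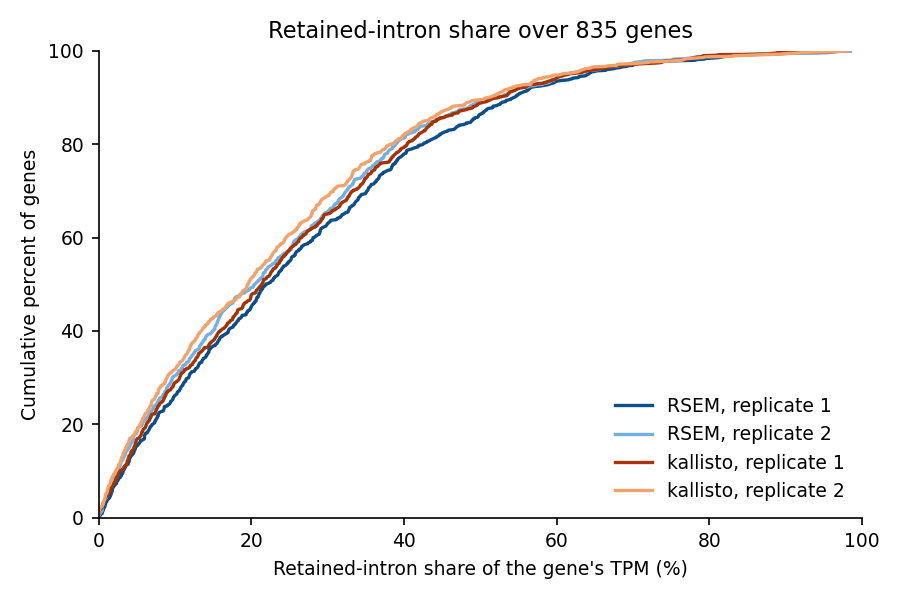
Cumulative percent of the 835 genes (vertical axis) by the retained-intron share of the gene's TPM in percent (horizontal axis), with 1 line for each library and quantification. The 4 lines run close together, with medians from 19.5% to 21.9%.

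Summed over all member genes, retained-intron transcripts took 21.5% and 17.1% of the TPM by RSEM and 23.5% and 25.2% by kallisto. Protein-coding transcripts took 71.3% ± 4.10 by RSEM and 65.0% ± 0.287 by kallisto. Transcripts annotated as nonsense-mediated decay took 4.57% ± 0.504 and 4.66% ± 0.417. A single gene set the order of the libraries by kallisto. Without S100a8, left out after its values were seen, the retained-intron sum was 22.8% and 19.3% by RSEM and 23.2% and 19.5% by kallisto, lower in replicate 2 by both.

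A share of at least 50% in both libraries by both quantifications was found in 62 genes, or 7.43% of the members. The same count over all 6026 genes with a retained_intron and a protein-coding transcript and at least 1 TPM in both libraries is 6.44%. A share of at least 10% in all 4 values was found in 516 genes, or 61.8%, against 61.4% over those 6026 genes. The well-expressed genes therefore lay near the background in both counts. Another 178 genes were under 10% in all 4 values, or 21.3% against 14.5% over the background genes, and 18 were under 1%, or 2.16% against 1.68%. Within the 62 genes the median number of retained_intron transcripts was 6, and 53 genes had a transcript with a whole intron. Of the 62, 27 also had at least 50% of their counts in retained-intron transcripts in all 4 values, and 9 reached 50% in all 4 with whole-intron transcripts alone. Those 9 include Rps20, Lilr4b, Prelid1, Mical1, Pirb, Aup1, Map4k2 and Il17ra.

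The 15 genes with the highest lowest-of-4 share were Usp15, Rps20, Lilrb4a, Lilr4b, Prelid1, Dpm1, Mical1, Ncl, Rps16, Zc3h7a, Zswim8, Sri, Scaf4, Safb and Napa. Their lowest value in any table was 70.5%, in Napa, which encodes the SNARE-disassembly factor alpha-SNAP. Usp15, a deubiquitinase gene, was first by this measure, at 95.8% and 96.3% by RSEM and 97.2% and 97.3% by kallisto. None of its 8 retained_intron transcripts holds a whole intron, and its leading one, Usp15-208, has 16 nt outside the coding exons. By counts its share was 86.8% by RSEM and 88.3% by kallisto.

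Lilrb4a, which encodes an inhibitory receptor, came after Rps20 in this order, at 96.6% and 97.3% by RSEM and 95.4% and 92.3% by kallisto, at a gene level of 436 and 530 TPM. Its transcript Lilrb4a-206 alone took 51.8% and 49.9% by RSEM and 60.6% and 57% by kallisto. An exon of Gm49339, another protein-coding gene model on the same strand, overlaps that transcript, with 43.8 and 73.4 TPM of its own. Lilr4b stood at 89.3% and 89.4% by RSEM and 88.0% and 89.4% by kallisto, at 614 and 813 TPM. Its leading transcript, Lilr4b-206, is a single exon of 4004 nt. It holds whole 7 annotated introns of the coding transcripts, some of which overlap one another.

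Dpm1, the catalytic subunit of dolichol-phosphate mannose synthase, had 84.0% and 84.4% by RSEM and 88.9% and 91.6% by kallisto. Mical1, an actin-oxidising monooxygenase, had 79.3% and 82.0% by RSEM and 81.3% and 82.9% by kallisto. Sri, which encodes the calcium-binding protein sorcin, had 81.4% and 78.0% by RSEM and 78.9% and 76.6% by kallisto. Its leading retained_intron transcript, Sri-201, has only 11 nt outside the coding exons. Safb, a nuclear scaffold attachment factor, had 78.2% and 77.7% by RSEM and 71.4% and 75.3% by kallisto, and Scaf4, which binds the tail of RNA polymerase II, 71.5% and 75.01% by RSEM and 73.8% and 76.8% by kallisto.

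The share of counts differed from the share of TPM in both directions. For Scaf4 the retained-intron share of counts was 25.6% by RSEM and 21.5% by kallisto, and for Napa 39.9% and 41.7%. The coding transcript of Scaf4 with the largest share is 4266 nt long, while its leading retained_intron transcripts are 527 and 508 nt long. Il17ra went the other way, with 81.5% and 83.9% of counts.

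**Figure D2:**
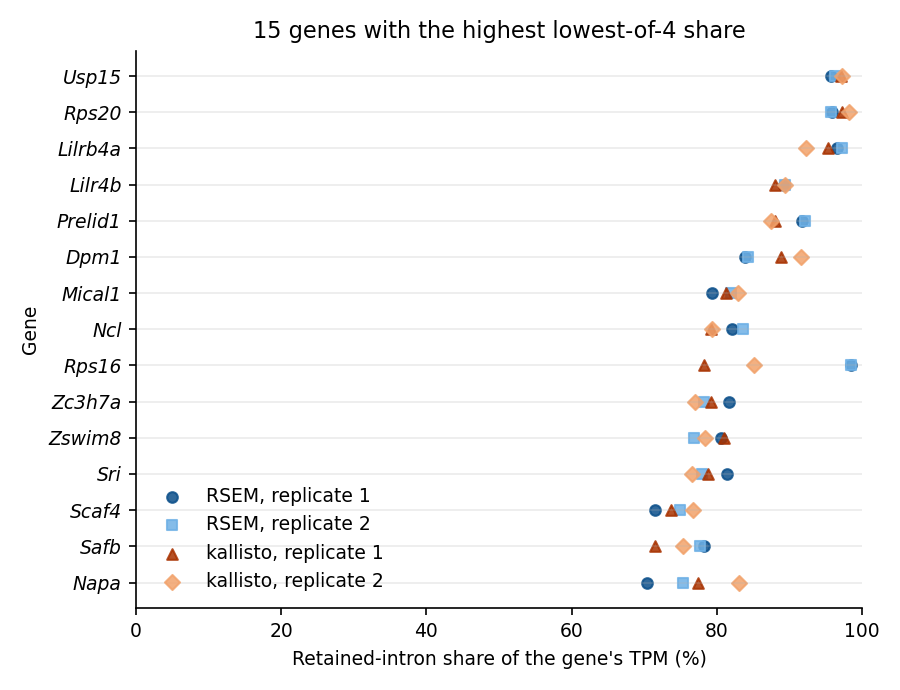
Retained-intron share of the gene's TPM in percent (horizontal axis) in the 15 genes with the highest lowest-of-4 share (vertical axis), with 1 point for each library and quantification. Most genes have their 4 points within a few percentage points, and Rps16 has both RSEM points near 98.5% and its kallisto points at 78.3% and 85.1%.

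Among the genes of neutrophil function, the granule lists were split. Of the 17 secondary and tertiary granule genes, 9 are members, with a median share of 8.78% ± 4.41 by RSEM and 19.8% ± 4.24 by kallisto. Adam8 was the 1 gene over 50% in all 4 (7.43% of all members reached 50%). It had 68.4% and 70.1% by RSEM and 62.6% and 68.0% by kallisto, at 511 and 468 TPM. Slc11a1, the phagosomal metal transporter, had 34.3% and 36.2% by RSEM and 26.9% and 30.3% by kallisto. Lcn2, the siderophore-binding granule protein, was under 1% in all 4 values at 2151 and 4530 TPM. Ltf, lactoferrin, had 2.88% and 2.20% by RSEM but 38.4% and 20.7% by kallisto, so its share depends on the quantification. Chil3, a chitinase-like protein, had 0.632% and 0.562% by RSEM and 11.2% and 0% by kallisto.

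The 2 members among the 9 primary granule genes were Prtn3 and Mpo, with medians of 15.2% ± 1.17 by RSEM and 0.820% ± 0.200 by kallisto. Mpo, myeloperoxidase, stayed under 2% in all 4 values. Prtn3, proteinase 3, had 27.8% and 30.8% by RSEM and 1.45% and 1.36% by kallisto. Its retained_intron transcript Prtn3-204 has 56 nt outside the coding exons.

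The NADPH oxidase, which makes superoxide in the phagosome, had 4 members with a median of 39.9% ± 2.39 by RSEM and 38.5% ± 3.18 by kallisto, and 3 of the 4 were at or above 10% in all values (61.8% of all members were). Ncf4, the cytosolic subunit p40phox, had 53.7% and 49.4% by RSEM and 48.3% and 44.0% by kallisto. Ncf1, the cytosolic subunit p47phox, had 29.5% and 27.0% by RSEM and 34.4% and 40.1% by kallisto. Cybb, the membrane-bound catalytic subunit, was lowest at 8.51% and 8.92% by RSEM and 7.66% and 9.03% by kallisto, and its 4 values did not overlap those of Ncf4 or Ncf1. By counts Ncf1 was lower, at 8.57% by RSEM and 11.5% by kallisto.

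Of 33 surface receptor and adhesion genes, 13 are members, with 8 at or above 10% and 4 below 10% in all 4 values (61.8% and 21.3% of all members). Their medians were 17.4% ± 3.04 by RSEM and 26.6% ± 4.17 by kallisto. Pirb, an inhibitory receptor for MHC class I, had 69.3% and 71.3% by RSEM and 89.0% and 90.3% by kallisto. Csf2ra, a subunit of the GM-CSF receptor, had 49.7% and 48.6% by RSEM and 45.4% and 48.1% by kallisto. Tnfrsf1a, a TNF receptor, had 6.34% and 9.05% by RSEM and 0% in both libraries by kallisto.

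The 6 members of the immediate-early and NF-kB list had medians of 10.2% ± 0.901 by RSEM and 23.1% ± 0.871 by kallisto. Fosb, a subunit of the AP-1 transcription factor, was the most even gene of the list, at 21.2% and 21.1% by RSEM and 21.2% and 20.5% by kallisto. Its single retained_intron transcript, Fosb-204, is 3629 nt long and holds 3 whole introns. Tnfaip3, an inhibitor of NF-kB signalling, had 20.2% and 17.8% by RSEM and 28.8% and 24.5% by kallisto. Il1b, interleukin-1 beta, had 6.08% and 5.37% by RSEM and 6.67% and 5.99% by kallisto.

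The lists of genes that act in splicing differed in their medians. The core spliceosome list had 13 members of 39, with medians of 36.3% ± 0.196 by RSEM and 34.6% ± 0.799 by kallisto, and 12 of the 13 were at or above 10% in all 4 values, against 61.8% of all members. Snrnp70, a protein of the U1 particle, had 62.1% and 65.3% by RSEM and 60.3% and 58.6% by kallisto. Srrm1, a splicing coactivator, had 55.2% and 51.3% by RSEM and 53.7% and 48.1% by kallisto. Ddx5, an RNA helicase, was the exception, at 2.82% and 3.19% by RSEM and 3.85% and 3.95% by kallisto.

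Among the SR and hnRNP genes, which bind pre-mRNA and steer splice-site choice, 26 of 43 are members, with medians of 23.2% ± 3.33 by RSEM and 20.8% ± 0.816 by kallisto. Srsf11 had 82.4% and 79.0% by RSEM and 70.3% and 67.9% by kallisto. Ptbp3, whose lowest value was the lowest of the list, had 5.43% and 4.54% by RSEM and 4.22% and 2.62% by kallisto.

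All 5 members of the list of Clk, Srpk and Dyrk kinases and O-GlcNAc enzymes were at or above 10% in all 4 values, as were 61.8% of all members, with medians of 49.97% ± 4.33 by RSEM and 42.2% ± 1.51 by kallisto. Clk4 had 63.0% and 59.8% by RSEM and 56.1% and 56.7% by kallisto. Clk1, at 522 and 623 TPM, had 61.5% and 56.1% by RSEM and 60.0% and 54.3% by kallisto, so replicate 1 was higher by both. Srpk2, whose lowest value was the lowest of the list, had 31.8% and 24.3% by RSEM and 29.5% and 21.4% by kallisto.

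The nuclear lamina and envelope list had 6 members of 14, with medians of 14.5% ± 0.784 by RSEM and 17.6% ± 0.224 by kallisto, below the medians of all members. Lmnb1, lamin B1, had 11.3% and 11.1% by RSEM and 16.9% and 18.01% by kallisto. Sun2, which links the lamina to the cytoskeleton, was highest at 42.9% and 32.5% by RSEM and 34.5% and 29.4% by kallisto. Tmpo, a lamina-associated protein, was lowest at 8.19% and 4.66% by RSEM and 8.54% and 4.79% by kallisto. None of the 17 nonsense-mediated decay genes on the list is a member, and 1 of them passed the TPM minimum. The 3 members among 23 genes of the nuclear exosome and RNA export were Tpr, a protein of the nuclear pore basket, Pabpc1, the cytoplasmic poly(A)-binding protein, and Nxf1, the mRNA export receptor, with medians of 16.2% ± 2.02 by RSEM and 27.5% ± 6.04 by kallisto. Nxf1 had 12.1% and 13.4% by RSEM and 32.7% and 22.6% by kallisto.

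Among genes for translation, the list medians of factors and of ribosomal proteins differed. The 8 members among the translation factors had medians of 33.8% ± 2.67 by RSEM and 35.3% ± 0.328 by kallisto. Eif4a2, an RNA helicase of translation initiation, has the most retained_intron transcripts of any member gene, 15, and stood at 49.6% and 46.9% by RSEM and 76.9% and 71.9% by kallisto. Small RNA genes on the same strand lie in 8 of those transcripts. One of them, the snoRNA entry Gm26447, had 1320 and 911 TPM of its own, and its part in the share was not tested. Eif4h, a stimulator of that helicase, had 52.3% and 49.99% by RSEM and 56.2% and 53.1% by kallisto. Eef1a1, whose lowest value was the lowest of the list, had 7.48% and 5.74% by RSEM and 6.83% and 4.04% by kallisto. Of the 8 members, 6 were at or above 10% and 1 below 10% in all 4 values (61.8% and 21.3% of all members).

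The 57 cytosolic ribosomal protein members had medians of 5.16% ± 2.16 by RSEM and 6.52% ± 1.37 by kallisto, and 26 of them were below 10% in all 4 values, against 21.3% of all members. The 2 above 50% in all 4 were Rps20 and Rps16 (7.43% of all members reached 50%). The one protein-coding transcript of Rps20, Rps20-203, is 3706 nt long and took under 5% of the gene's TPM in all 4 values, while Rps20-201, labelled retained_intron, is 582 nt long. Rps16 had 98.5% in both libraries by RSEM and 78.3% and 85.1% by kallisto. The tables also hold 2 pseudogene entries named after Rps16, with 108 and 105 TPM in all. None of the 31-mers of its retained_intron transcripts outside coding exons occurs in transcripts of other genes. The sequence within coding exons was not compared, so sequence shared there with these entries would not show. The part of these entries in the share was not tested. Rplp0 was under 1% in all 4 values.

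Cytoskeletal and metabolic genes had list medians below those of all members. The 26 actin cytoskeleton members had medians of 11.9% ± 1.81 by RSEM and 13.5% ± 1.20 by kallisto. In all 4 values, 13 were at or above 10% and 10 below 10% (61.8% and 21.3% of all members). Actb, beta-actin, was under 1% in all 4 at 5137 and 7196 TPM. Flna, filamin A, had 30.4% and 26.5% by RSEM and 34.8% and 28.9% by kallisto. The 9 glycolysis members had medians of 4.44% ± 0.192 by RSEM and 4.88% ± 0.150 by kallisto, with Slc2a3, a glucose transporter, highest at 29.0% and 29.9% by RSEM and 25.4% and 27.8% by kallisto.

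Of 33 genes of the vacuolar proton pump and lysosome, 13 are members, with medians of 14.4% ± 1.71 by RSEM and 17.0% ± 3.47 by kallisto. Ctsb, cathepsin B, had 56.1% and 60.9% by RSEM and 63.7% and 64.8% by kallisto. By counts it had 19.0% and 19.7%, and its leading retained_intron transcript of 801 nt stands against a coding transcript of 4743 nt. The 4 members of MHC class I and antigen processing had medians of 25.2% ± 1.44 by RSEM and 34.9% ± 2.74 by kallisto. H2-K1, a classical class I heavy chain, had 64.3% and 70.1% by RSEM and 59.4% and 62.3% by kallisto, and its leading transcript H2-K1-215 has 20 nt outside the coding exons. H2-D1, another class I heavy chain, had 20.6% and 22.2% by RSEM and 11.3% and 10.6% by kallisto. The 2 proteasome members of 36 listed genes were Psmb4, a subunit of the core particle, at 65.1% and 58.2% by RSEM and 74.4% and 48.0% by kallisto, and Psme2, a subunit of the PA28 activator. Psme2 had 48.7% and 49.8% by RSEM and 32.7% and 25.7% by kallisto. The list medians were 55.5% ± 2.03 by RSEM and 45.2% ± 11.8 by kallisto.

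**Figure D3:**
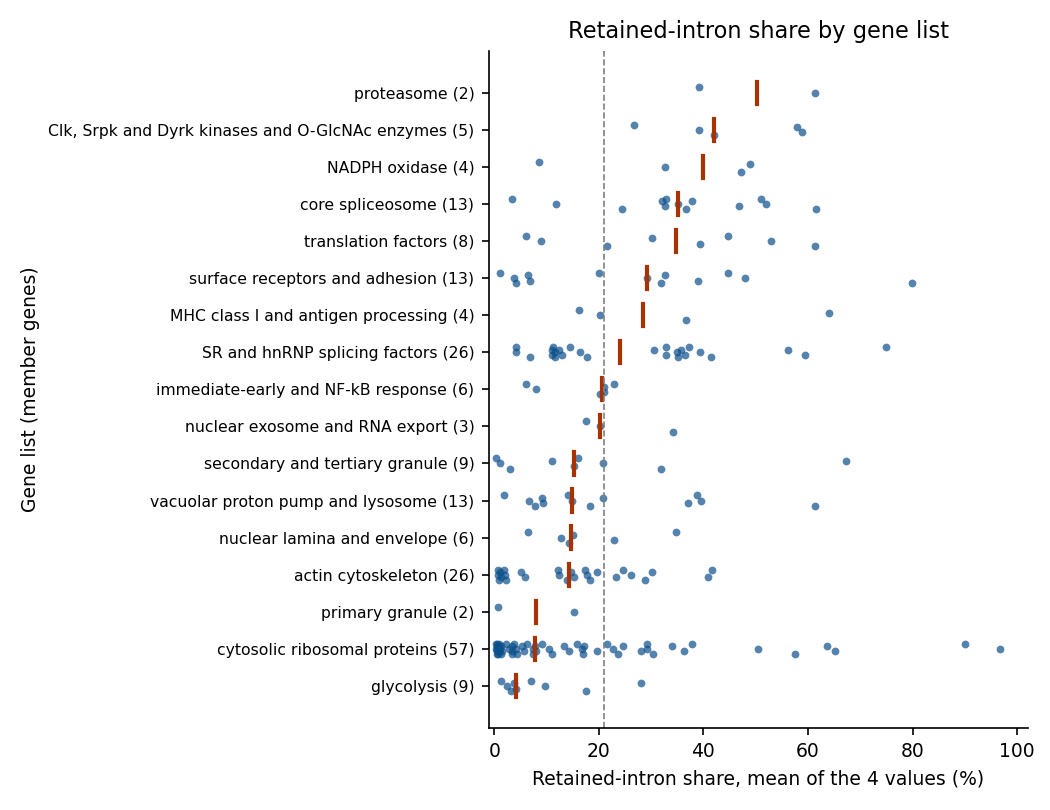
Retained-intron share in percent, as the mean of the 4 values of a gene (horizontal axis), for the member genes of each gene list (vertical axis, number of members in brackets). Points are genes, the upright red bars are list medians and the dashed line is the median of all 835 genes. The medians of the Clk and spliceosome lists lie right of the dashed line, while the glycolysis and ribosomal protein medians lie left of it.

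Shares followed the number of annotated retained_intron transcripts. Genes with 1 such transcript, 227 in all, had a median share of 8.83% ± 0.817 by RSEM and 7.26% ± 0.649 by kallisto. The 184 genes with 5 or more had 40.4% ± 2.70 and 37.1% ± 2.47. Across genes, which are not independent replicates, Spearman's rho between the share and this number was 0.587 by RSEM and 0.588 by kallisto (n = 835). With the log2 gene TPM, rho was -0.165 and -0.129. The 418 genes with a mean under 100 TPM had a median share of 24.0% ± 1.47 by RSEM and 22.3% ± 1.53 by kallisto. The 33 genes of 500 TPM or more had 7.35% ± 1.73 and 10.9% ± 0.442. The genes just above the TPM minimum were Ddit3, Ccdc12 and Atxn7l1, with RSEM shares from 14.7% to 61.7%, and those just below it were Psma7, Nup153 and Abr, with RSEM shares from 17.0% to 33.2%.

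A minority of the retained_intron transcripts contain a whole intron of a coding transcript. Those were 869 of 2635, or 33.0%, in 460 genes, and 285 held more than 1. Introns of different coding transcripts that overlap one another are counted separately here and below. Over all 835 genes, the median share of gene TPM in these transcripts was 1.56% ± 0.175 by RSEM and 1.71% ± 0.357 by kallisto. The whole-intron transcripts took 34.1% ± 1.06 of the retained-intron TPM by RSEM and 24.8% ± 4.38 by kallisto. Of the 1766 without a whole intron, 961 begin and 1028 end inside an intron of a coding transcript, and 51 do neither. The median member transcript has 312 nt outside coding exons, and 23 have none. These tables hold no counts of reads across splice junctions or within introns. A retained intron in a spliced RNA and an RNA that is not yet spliced cannot be told apart in them.

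The 1146 whole introns inside member transcripts are 8.24% of the 13906 introns of the genes' coding transcripts, and they are shorter than the rest. Their median length was 255.5 nt (middle 50% of introns 117 to 647 nt) against 1162 nt (387 to 3067 nt) for the others. Of introns under 100 nt, 20.8% were contained, and of those of 5000 nt or more, 1 of 2062. Lengths and containment are properties of the annotation, so no neutrophil measurement enters this difference. Their position differed little: 12.0% were the first intron of their transcript against 14.6% of the others, and 10.9% the last against 8.99%. In all, 1034 lie between coding exons, 88 in the 5′ UTR and 24 in the 3′ UTR.

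**Figure D4:**
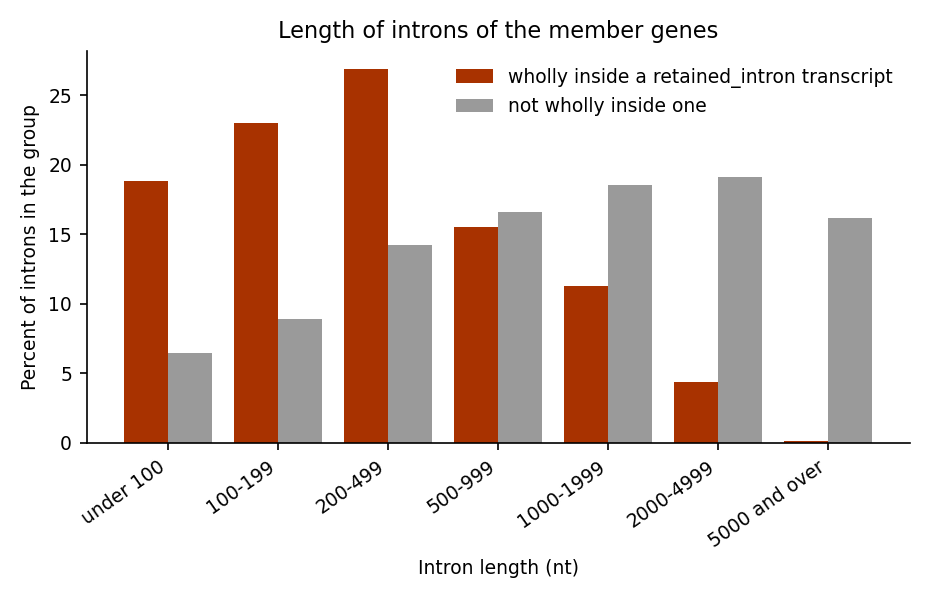
Percent of introns (vertical axis, bars from 0) in classes of intron length in nt (horizontal axis), for the 1146 introns wholly inside a retained_intron transcript and the 12760 introns of the same genes that are not. The contained introns are concentrated in the classes below 500 nt.

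Nearly all of these introns have the canonical splice-site letters. GT at the start and AG at the end were found in 1132, or 98.8%, and GC with AG in 9. The median G and C content was 50.4%, with 55.2% in introns under 120 nt and 44.9% in those of 650 nt or more. For 972 introns between coding exons, the coding sequence of the host transcript begins with ATG. Of these, 878, or 90.3%, hold an in-frame stop, and the median first position was base 30 of the intron. The 94 without one were shorter, with a median of 91.5 nt against 285 nt. The 298 introns with a share of at least 10% in all 4 values had a median length of 262 nt and a G and C content of 50.4%, against 255 nt and 50.4% for the introns below. Median length and base composition were thus close in both groups.

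The highest single retained_intron transcripts by level belonged to abundant neutrophil RNAs. S100a8-202, from the gene of the calprotectin subunit S100A8, had 282 and 424 TPM (RSEM) and 2785 and 17470 TPM (kallisto). Its share was 3.17% and 1.85% by RSEM and 27.1% and 59.4% by kallisto, so both quantifications of the same library differ widely. The transcript is 498 nt long with 208 nt outside the coding exons, and the coding transcript S100a8-201 is 486 nt long. Lilrb4a-206 had 226 and 265 TPM in the RSEM table and 223 and 283 TPM in the kallisto one. Fth1-207, from the ferritin heavy chain gene, had 353 and 469 TPM (RSEM) and 222 and 266 TPM (kallisto), and it differs from the coding exons by 71 nt. Vim-203 had 226 and 205 TPM (RSEM) and 191 and 193 TPM (kallisto), and Lilr4b-206 179 and 230 TPM (RSEM) and 158 and 209 TPM (kallisto).

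Both quantifications ranked the genes alike on the whole. Across genes, Spearman's rho between them was 0.881 in replicate 1 and 0.863 in replicate 2, and Pearson's r was 0.889 and 0.859. Between libraries, Pearson's r was 0.965 by RSEM and 0.936 by kallisto (n = 835). The points share the library in the first case and the quantification in the second. The median absolute difference was 3.26 and 2.83 percentage points between quantifications, and 2.69 and 2.91 points between libraries by RSEM and kallisto. A difference of over 10 points in the same direction in both libraries was found in 88 genes, or 10.5%, against 11.8% of the 6026 background genes. Kallisto was higher in 35 (4.19%, background 6.49%) and RSEM in 53 (6.35%, background 5.28%).

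The largest differences with kallisto above RSEM included those in Myl6, Rpl37a, Ccl6 and Fcgr3. Myl6, a myosin light chain, had 11.9% and 9.73% by RSEM and 65.5% and 76.4% by kallisto. Its coding transcript Myl6-201 took 81.8% and 87.0% by RSEM and 1.12% and 1.52% by kallisto. Fcgr3, a low-affinity IgG receptor, had 18.7% and 13.7% by RSEM and 44.2% and 79.3% by kallisto. Ccl6, a chemokine, had 33.5% and 28.1% by RSEM and 60.8% and 60.4% by kallisto.

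The largest differences with RSEM above kallisto were in Rps23, Pilrb2, Pnpla7, Pilrb1 and Gpx4. Pilrb1 and Pilrb2 encode related activating receptors. Pilrb2 had 61.7% and 54.5% by RSEM and 0% and 5.34% by kallisto. Gpx4, a glutathione peroxidase that reduces lipid peroxides, had 64.2% and 37.4% by RSEM and 10.2% and 4.55% by kallisto, and its transcript Gpx4-203 of 280 nt was at 0 by kallisto in both libraries. Rps23 had 87.4% and 75.2% by RSEM and 24.4% and 14.5% by kallisto, beside pseudogene entries named after it with 211 and 282 TPM. For these genes no single share can be given from these tables.

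**Figure D5:**
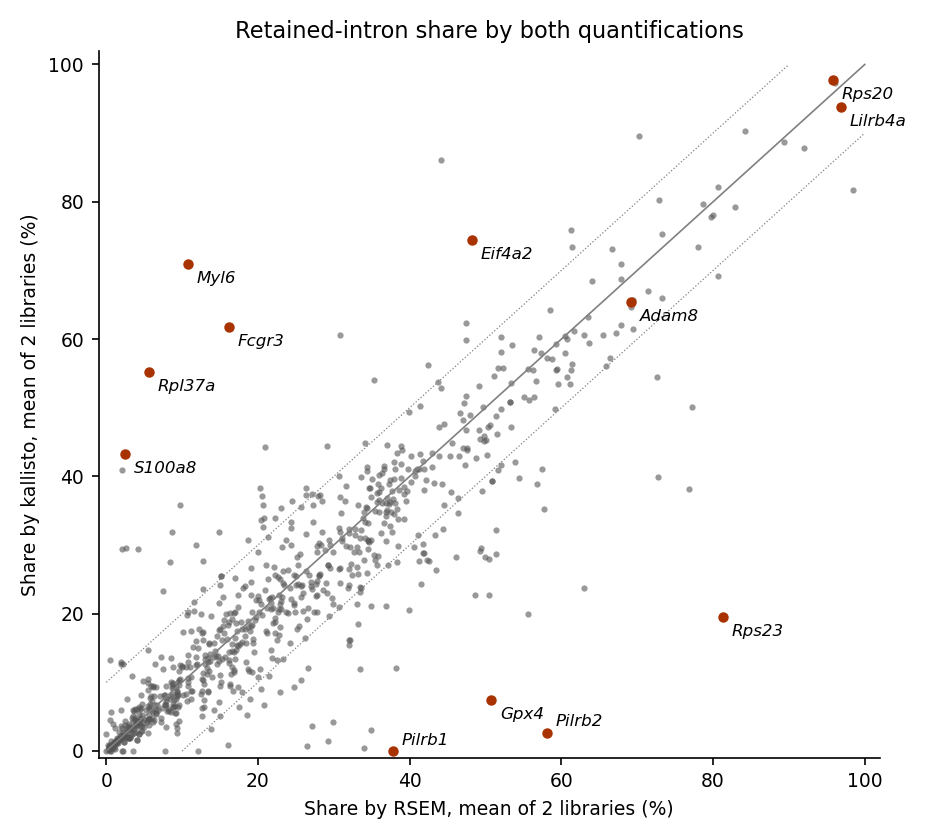
Retained-intron share by kallisto (vertical axis) against RSEM (horizontal axis), both in percent and as the mean of both libraries, with 1 point for each of the 835 genes. The solid line marks equal shares and the dotted lines a difference of 10 percentage points. Myl6, Fcgr3, Rpl37a and S100a8 lie far above it, and Rps23, Pilrb1, Pilrb2 and Gpx4 far below.

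Shares tended to be higher in replicate 1. It was the higher library by both quantifications in 477 genes, or 57.1%, against 50.5% of the background genes, and replicate 2 in 184, or 22%, against 23.5%. The median difference was small, at 1.40 points by RSEM and 1.23 points by kallisto. A difference of over 10 points by both quantifications was found in 21 genes higher in replicate 1 (2.51%, background 7.93%) and 5 higher in replicate 2 (0.599%, background 3.42%). The spike-in share and the summed marker levels given above also differ between these libraries, and their part in this was not tested.

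The largest differences in favour of replicate 1 included those in Vim, Ep300, Anp32a and Gnb1. Vim, vimentin, had 51.6% against 37.0% by RSEM and 47.2% against 30.7% by kallisto. Ep300, a histone acetyltransferase, had 39.2% against 17.6% by RSEM and 48.4% against 24.4% by kallisto. By RSEM counts its mean share over both libraries was only 7.52%. Anp32a, an acidic nuclear phosphoprotein, had 41.9% against 26.3% by RSEM and 41.9% against 24.9% by kallisto. Those in favour of replicate 2 were in Rpl31, Rps2, Cul3, Rps7 and Cxcl2. Cxcl2, a neutrophil-attracting chemokine, had 16.6% against 29.3% by RSEM and 12.9% against 23.3% by kallisto. Its transcript Cxcl2-204, 397 nt long, took 10.6% and 23.6% by RSEM and 7.61% and 15.2% by kallisto.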

How the data were processed

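The authors deposited, for each library, a gene table and a transcript table in RSEM layout with expected counts and TPM, and a transcript table in kallisto layout with estimated counts and TPM, all on mm10 with GENCODE M21, per the labels. Which programs and aligner made them is not given in the sources used here. A gene's share is the summed TPM of its retained_intron transcripts divided by the summed TPM of all its transcripts in the same table, in percent. Shares of counts given for single genes are means of both libraries. Of the 141864 kallisto entries, 97 without an RSEM entry were left out. Introns under 30 nt were ignored. A whole intron is one whose every base lies within 1 exon of a retained_intron transcript. Introns of different coding transcripts that overlap one another were counted separately throughout. Shared sequence was measured as exact 31-mers on either strand, only in the parts of retained_intron transcripts outside coding exons. With 1 group, 2 libraries and the same donor identifier, no test was made, and SDs are of n = 2. The calculation was tested on simulated tables with known shares. Python 3.11.15, pandas 2.3.3, numpy 2.4.6 and matplotlib 3.10.9 were used.

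The members, the 18 gene lists and the alternatives were chosen with earlier results of these data known. Named genes are the 15 with the highest lowest-of-4 share and at least 10 retained-intron counts in each table, the 2 highest and 1 lowest of each list, the 5 with the largest differences between quantifications and between libraries in each direction, the 5 highest transcripts, and the 3 genes next to the TPM minimum on each side. Lcn2, Ltf, Ncf1, Lmnb1, Il17ra, Chkb, Aup1 and Map4k2 were named after their values were seen or through the printed introns. Some genes that the rule names are not reported here. The alternatives were other units, TPM minimums, transcript sets and denominators, and leaving out each library.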

Additional observations from a re-analysis of the deposited data

How the results depend on the processing

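The median share by RSEM of 21.2% was 12.1% as a share of counts, 22.5% with a gene minimum of 20 TPM, 13.6% with 200 TPM, 10.2% with whole-intron transcripts alone (in the 460 genes that have one, and 1.56% over all 835), 18.3% with transcripts of at least 500 nt and 25.2% over coding and retained-intron transcripts only. By kallisto the median of 20.5% was 11.02% of counts, 16.6% with 200 TPM, 9.72% with whole-intron transcripts (1.71% over all 835 genes), 18.04% with at least 500 nt and 24.3% over coding and retained-intron transcripts. The counts that follow are over 835 genes unless the gene set changes. It was 2092 genes with 20 TPM, 136 with 200 TPM, 460 with whole-intron transcripts and 792 with at least 500 nt. The 62 genes at 50% became 169 with 20 TPM, 8 with 200 TPM, 9 with whole-intron transcripts and 101 over coding and retained-intron transcripts. The 516 genes at 10% became 1362, 68 and 190 with 20 TPM, 200 TPM and whole-intron transcripts. The 88 genes apart between quantifications became 49 by counts, 196 with 20 TPM, 15 with 200 TPM and 24 with whole-intron transcripts. The 26 genes apart between libraries became 9 by counts, 87 with 20 TPM, 4 with 200 TPM, 2 with whole-intron transcripts and 14 with at least 500 nt. A TPM minimum and a set of transcripts change how many genes are counted by construction. A denominator of fewer transcripts can by construction only raise a share or leave it unchanged. For the other shifts the cause was not tested. Leaving out each library in turn gave medians from 20.5% to 21.9% by RSEM and from 19.5% to 21.4% by kallisto. The counts without 1 library were 66 to 81 genes at 50%, 533 to 567 at 10% and 131 to 143 apart between quantifications, the last 143 without replicate 2. These counts can only rise or stay the same, because fewer values have to pass. The count of genes apart between libraries needs both libraries. In all, 30 results under alternatives stayed within the spread of the libraries or 1.5 times the main count, and 28 did not. Most of the results without 1 library were among the 30. For the medians without 1 library this was fixed by construction, because the main median is the mean of both library medians.

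No paired analysis was possible because there is 1 group. The RSEM bounds set the precision of single transcripts: among member transcripts of at least 1 TPM in all 4 values, the upper bound was a median of 1.53 and 1.58 times the lower one in replicates 1 and 2.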
